A study of Mus musculus with 20 samples.

Results

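Natural killer (NK) receptors are surface proteins with which NK cells, and many activated CD8 T cells, sense stressed or altered cells. Activating members such as NKG2D and NKp46 signal through small adaptor proteins, whereas inhibitory members such as NKG2A recruit phosphatases and raise the threshold for killing. In mice most of them are lectin-like proteins encoded together in the natural killer gene complex on chromosome 6, and CD8 T cells gain several of them after antigen stimulation in inflamed or tumour-bearing tissue.

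Of 7 named genes (Ncr1, Klrk1, Klrd1, Klrc1, Klrg1, Klre1 and Klrb1c), 6 were measured by a probe set that carried exactly 1 gene symbol, among 17097 genes measured in this way. Klre1, another lectin-like receptor gene of the complex, had no listed probe set and was not analysed here. Where a gene had several probe sets, the one with the highest mean over the 20 arrays was used, which mattered for Klrc1 only among the receptors. The genes were chosen by name, with no threshold on their values.

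The arrays measured RNA of CD44+CD8+ T cells purified from mouse lungs that carried tumours of 4T1, a mouse mammary carcinoma cell line. The 4 groups were Saline-CTRL (5 arrays), SD-101 (6 arrays), SD-101+anti-PD-1 (5 arrays) and SD-101+anti-PD-1+a-CD4 (4 arrays), the last called the triple treatment here. SD-101 is a ligand of TLR9 that was given through the nose, anti-PD-1 is an antibody to an inhibitory T cell receptor, and a-CD4 is an antibody to CD4 whose effect on the cells the labels do not describe. No group received anti-PD-1 or a-CD4 without SD-101, so neither antibody can be judged alone. The labels give no mouse strain, age, dose or time, and do not say whether the numbered samples came from separate animals, so the tests cover only the spread among the numbered samples.

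All values are log2 expression values on the authors' normalized scale, on which a difference of 1 is a doubling, and levels of different probe sets are not set against each other. Cd8a (mean 10.80 over 20 arrays), Cd8b1 (11.01), Cd3e (8.54) and Cd44 (9.66) were high and Cd4 (3.13) was near the low end of the scale, matching the labelled sort, and none of the 5 passed limma's test in any of the 6 comparisons of groups. Markers of other lung cells were detected: a score of 8 endothelial markers (their mean log2 value) was 7.81 to 9.91 in Saline-CTRL, 6.93 to 9.34 in SD-101, 4.91 to 6.15 in SD-101+anti-PD-1 and 6.24 to 7.76 in the triple treatment. Since the RNA was bulk, more cells of a type and more RNA per cell cannot be told apart in any result below. Triple treatment replicate 2 (8.38) and Saline-CTRL replicate 1 (8.92) had the lowest scores of 12 T cell identity genes, so called results of the receptors that use either array are also given without both.

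The promoters of Ncr1, Klrk1 and Klrc1 are shown first, because these were the 3 receptor genes called in at least 1 comparison of groups. Each is the 250 bases upstream of a start site in RefSeq (assembly GRCm38.p6), 5′ to 3′ in the direction of the gene, with capitals at the RUNX motif TGTGGT on either strand. Ncr1 lies at chr7:4337465-4337714 on the plus strand, Klrk1 at chr6:129623865-129624114 and Klrc1 at chr6:129678974-129679223, both on the minus strand.
Ncr1: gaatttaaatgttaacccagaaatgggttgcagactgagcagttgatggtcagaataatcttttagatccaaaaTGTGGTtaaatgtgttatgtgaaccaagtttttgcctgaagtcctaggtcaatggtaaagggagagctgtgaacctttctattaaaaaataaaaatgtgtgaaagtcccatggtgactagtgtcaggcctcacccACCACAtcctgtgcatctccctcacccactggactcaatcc
Klrk1: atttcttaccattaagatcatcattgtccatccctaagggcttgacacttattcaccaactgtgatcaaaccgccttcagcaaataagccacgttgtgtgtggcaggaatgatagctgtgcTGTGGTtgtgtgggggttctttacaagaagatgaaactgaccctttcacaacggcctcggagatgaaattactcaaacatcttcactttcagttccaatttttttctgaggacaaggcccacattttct
Klrc1: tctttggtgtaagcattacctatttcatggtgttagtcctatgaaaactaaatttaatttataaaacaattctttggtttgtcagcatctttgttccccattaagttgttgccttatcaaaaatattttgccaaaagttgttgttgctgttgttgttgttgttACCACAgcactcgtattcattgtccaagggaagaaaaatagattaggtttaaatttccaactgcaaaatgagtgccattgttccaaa
RUNX proteins include RUNX3, a factor of CD8 T cells and NK cells. The motif occurred 2 times in the Ncr1 window, with its first base at positions -176 and -41 from the start site, and 1 time each in the Klrk1 window (-129) and the Klrc1 window (-87). A match was also found in the window of Klrb1c (-89), which was called in no comparison, and in a window of Klre1 (-229). The motif is short and common, being found in 14.0% of the 32851 promoter windows of that length. The T-box letters GGTGTGA, searched on both strands because T-bet is a T-box factor of effector cells, were in 3.33% of all windows and in none of those listed for the receptors. The ETS letters AGGAAG were in 29.5% of all windows and in none of the 3 shown, but occurred 3 times in the Klrb1c window. These matches describe the sequence only. Klrd1 and Klrg1 had no entry in the promoter table.

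Ncr1 was high in the SD-101 group and in no other. Ncr1 encodes NKp46, an activating receptor of the immunoglobulin family that is a defining surface protein of NK cells and some innate lymphoid cells and is absent from most T cells. In Saline-CTRL its log2 values were 4.80, 5.20, 5.78, 5.54 and 4.46 for replicates 1 to 5. In SD-101 they ran from 6.01 through a median of 6.85 to 8.06. All 6 SD-101 arrays lay above all 5 saline arrays, and replicates 3 (8.06) and 4 (7.95) were the highest.

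With anti-PD-1 added, the Ncr1 values were 5.37, 5.24, 5.05, 5.32 and 5.28, a narrow band within the saline range. Under the triple treatment they were 3.62, 3.08, 5.03 and 4.79. Both combination groups lay wholly below the SD-101 group, and the triple treatment lay wholly below SD-101+anti-PD-1, its 2 lowest arrays (replicates 1 and 2) also lying below every saline array.

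Ncr1 rose by 1.86 (SE 0.39; limma, adjusted p = 0.0447) in SD-101 against Saline-CTRL, a 3.64-fold difference, from 5.16 ± 0.54 (SD, n = 5) to 7.02 ± 0.86 (SD, n = 6). It was the only one of the 6 receptors called there, where 0.333% of all genes tested were called. This call was close to the threshold. It was lost in 8 of the 11 fits that left out 1 array, those without any 1 saline array or without SD-101 replicate 3, 4 or 5, with limma's adjusted p reaching 0.146. It was also lost with quantile normalization (1.83; limma, adjusted p = 0.0550) and with only the 2 groups fitted (limma, adjusted p = 0.166).

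Ncr1 fell by 1.77 (SE 0.39; limma, adjusted p = 0.0144) in SD-101+anti-PD-1 against SD-101, to 5.25 ± 0.12 (SD, n = 5), being 3.40-fold lower. It was again the only receptor called, against 4.77% of all genes. In the triple treatment against SD-101 it fell by 2.89 (SE 0.41; limma, adjusted p = 0.0118), to 4.13 ± 0.93 (SD, n = 4), being 7.41-fold lower, and it was the only receptor called against 0.983% of all genes. Both of these calls held in every fit that left out 1 array (11 of 11 and 10 of 10), but with only the 2 groups fitted the second missed the threshold (limma, adjusted p = 0.0517). Without the 2 arrays of lowest T cell identity the second difference was -2.54 (limma, adjusted p = 0.0168). Neither array belongs to the groups of the first difference, so its -1.77 could not change. Only the shared estimate of the spread did (limma, adjusted p = 0.0108).

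The other differences of Ncr1 did not pass the test. It differed by 0.10 (95% interval -0.75 to 0.95) between SD-101+anti-PD-1 and Saline-CTRL, by -1.03 (-1.93 to -0.12; limma, adjusted p = 0.173) between the triple treatment and Saline-CTRL, and by -1.12 (-2.03 to -0.22; limma, adjusted p = 0.172) between the triple treatment and SD-101+anti-PD-1. The order of the group means was therefore triple treatment, Saline-CTRL, SD-101+anti-PD-1 and SD-101, and of the neighbours in that order only the last pair differed beyond the threshold. Comparisons that share the SD-101 or the saline arrays are not independent of each other.

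**Figure D1:**
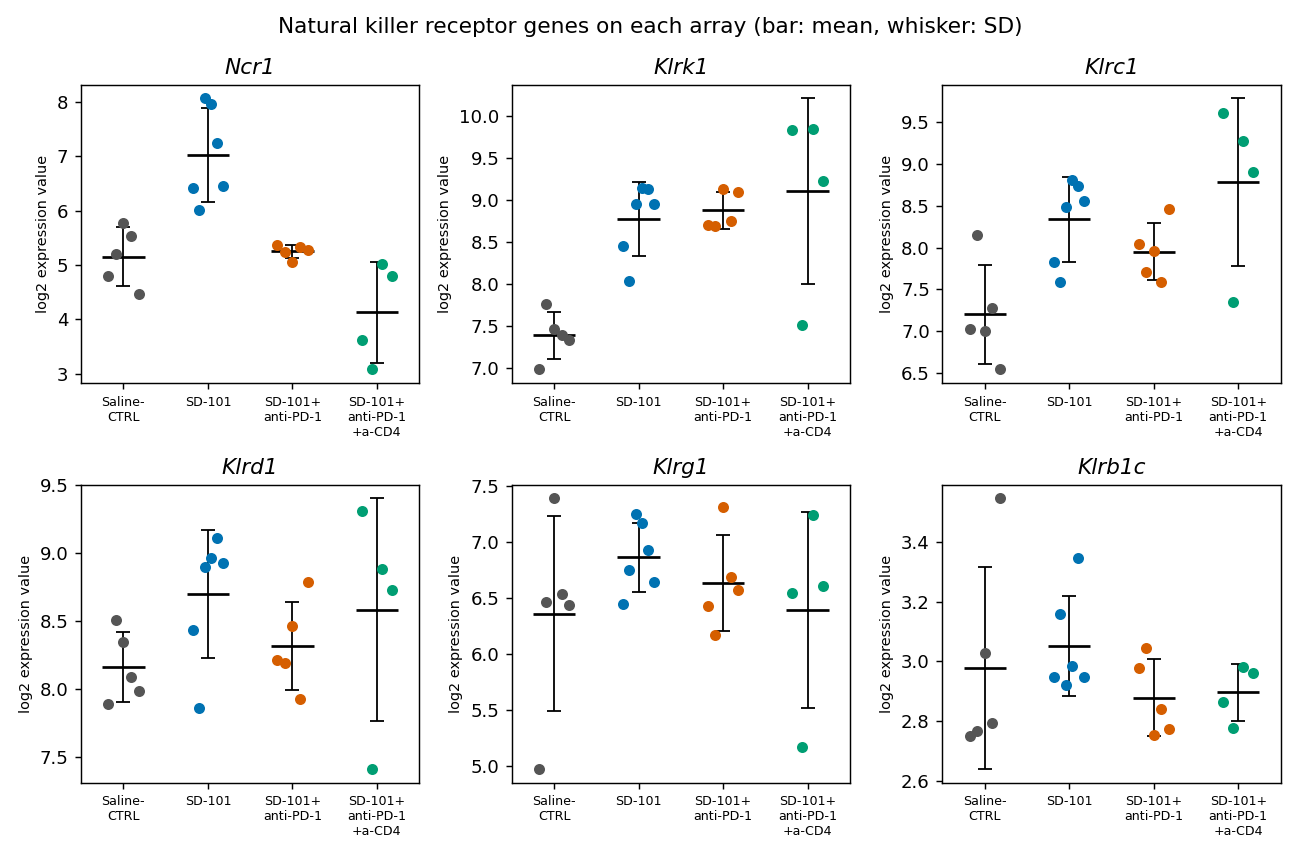
Log2 expression value (y axis, a separate scale in each panel) of the 6 measured receptor genes in the 4 groups (x axis), 1 point per array, with the group mean as a bar and the SD as a whisker. For Ncr1 the 6 SD-101 arrays (6.01 to 8.06) sit above all others, whereas for Klrk1 all SD-101 and SD-101+anti-PD-1 arrays sit above all saline arrays and triple treatment replicate 2 (7.51) lies among the saline values.

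Some scores of markers of other cells also lay higher in the SD-101 group, part of them overlapping with saline. Others were lower or close to saline. Mean scores were 8.44 against 9.08 in saline for endothelial and 5.38 against 5.72 for innate-like T cell markers. They were 9.24 against 9.19 for lung epithelial and 6.89 against 6.77 for fibroblast markers. Neutrophil markers stood at 4.53 against 4.49, with saline replicate 1 at 9.87. The mean log2 value of 11 other NK cell markers was 5.77 to 7.11 in SD-101 and 5.18 to 5.81 in Saline-CTRL, 5.38 to 5.86 in SD-101+anti-PD-1 and 4.97 to 6.20 in the triple treatment. All 11 had a positive difference in SD-101 against Saline-CTRL, with a median of 0.43 against 0.012 over all genes, but none of them passed limma's test. An unadjusted p under 0.05 was found for 4 of the 11, where 8.27% of all genes had one. The largest differences were those of Fcer1g (1.61; limma, adjusted p = 0.557), an Fc receptor adaptor, and Klra9 (1.57; limma, adjusted p = 0.162), a Ly49 receptor. Itga2 (mean 3.11 over the 20 arrays), Klra8 (2.49), Klrb1b (2.79) and Styk1 (3.29) were near the low end of the scale. Klrb1f (6.12), Fcer1g (6.29), Tyrobp (6.86), Klra9 (7.21), Txk (8.14), Eomes (8.39) and Gzma (8.95) were well above it. The last 3 are also expressed by CD8 T cells, so the score is not particular to NK cells. Which cells its other genes came from, Fcer1g and Tyrobp among them, was not tested.

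The 2 SD-101 arrays with the highest Ncr1, replicates 3 and 4, also had the highest NK cell marker scores in their group (6.54 and 7.11). They had the highest scores of 3 dendritic cell markers as well (4.98 and 6.34, where all saline arrays were at 3.05 to 3.40). Their scores of 8 macrophage markers were the highest in their group (5.84 and 7.29, with saline at 4.37 to 5.06). Mast cell markers stood at 4.47 to 5.01 in SD-101 and 3.73 to 4.68 in Saline-CTRL (1 of 8 rose), and B and plasma cell markers at 5.72 to 7.31 and 4.44 to 5.25 (1 of 4 rose). In that comparison 0.333% of all genes were called.

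Several of these scores were lower in the combinations, where Ncr1 fell. The mast cell score lay wholly below that of SD-101 in both, the B and plasma cell score did so in the triple treatment, and the macrophage and dendritic scores overlapped with SD-101 (4.61 to 7.29 and 3.15 to 6.34). In SD-101+anti-PD-1 the mast cell score was 3.28 to 3.90, the macrophage score 4.43 to 4.77 and the dendritic score 3.02 to 3.37. Against SD-101, 4 of 8 mast cell markers fell there (0 of 8 positive, median -0.85) and 1 of 8 macrophage markers fell (median -0.92). The share of all genes called there was 4.77%, and the median over all genes was 0.0080. B and plasma cell markers, at 5.55 to 6.37, overlapped with SD-101, and 0 of 4 were called by limma. In the same comparison 8 of 8 endothelial markers fell (median -3.04). Other scores went the opposite way to Ncr1. Lung epithelial markers had a positive difference in 6 of 6 (median 0.88, 2 rose), and fibroblast markers in 6 of 6 (median 0.73, 1 rose). In the triple treatment the mast cell score was 3.81 to 4.17 (2 of 8 fell against SD-101, where 0.983% of all genes were called). The macrophage score was 4.30 to 4.95, the dendritic score 3.07 to 3.75 and the B and plasma cell score 4.28 to 5.65. The part of these cells in the Ncr1 results was not tested. Without SD-101 replicates 3 and 4, an alternative chosen after seeing the data, the Ncr1 difference in SD-101 against Saline-CTRL was 1.37 (limma, adjusted p = 0.278) and in SD-101+anti-PD-1 against SD-101 it was -1.27 (limma, adjusted p = 0.120), so both calls ended. These 2 arrays had the highest Ncr1, so leaving them out had to shrink both differences. The number of all genes called also dropped, from 57 to 6 and from 816 to 161. The lost calls therefore cannot show the part of other cells. The fall in the triple treatment against SD-101 stayed at -2.40 (limma, adjusted p = 0.0320). The 4 SD-101 arrays that remain, at 6.01 to 7.24, were still above every array of the other groups.

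Klrk1 values were higher in all 3 SD-101 groups than in saline, and the difference passed the test in both combinations. Klrk1 encodes NKG2D, an activating receptor for stress-induced relatives of MHC class I that acts as a costimulator on CD8 T cells. In Saline-CTRL its values were 6.98, 7.76, 7.47, 7.40 and 7.34. In SD-101 they ran from 8.04 through a median of 8.96 to 9.14. The 2 groups did not overlap.

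The Klrk1 values in SD-101+anti-PD-1 were 8.71, 8.70, 9.13, 8.75 and 9.10. The triple treatment gave 9.84, 7.51, 9.86 and 9.23. Every SD-101+anti-PD-1 array, as well as 3 of 4 triple treatment arrays, lay above all saline arrays, the exception being triple treatment replicate 2, the array of lowest T cell identity.

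Klrk1 rose by 1.49 (SE 0.34; limma, adjusted p = 0.0116) in SD-101+anti-PD-1 against Saline-CTRL, a 2.81-fold difference, from 7.39 ± 0.28 (SD, n = 5) to 8.88 ± 0.22 (SD, n = 5). It was the only receptor called, where 5.63% of all genes were called. In the triple treatment against Saline-CTRL Klrk1 rose by 1.72 (SE 0.36; limma, adjusted p = 0.00634), a 3.30-fold difference, to 9.11 ± 1.10 (SD, n = 4). It was 1 of 2 receptors called, where 7.12% of all genes were called. Both calls held in every fit that left out 1 array (10 of 10 and 9 of 9), but the second ended with only the 2 groups fitted (limma, adjusted p = 0.0807). Without the 2 arrays of lowest T cell identity the differences were 1.39 and 2.15 (limma, adjusted p = 0.00123 and 0.000191).

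In SD-101 alone against Saline-CTRL the Klrk1 difference was 1.39 (SE 0.32; limma, adjusted p = 0.0914), which did not pass the test. It passed with array weights (1.47; limma, adjusted p = 0.00621) and without the 2 arrays of lowest T cell identity (1.29; limma, adjusted p = 0.00729), where Ncr1 no longer did (1.78; limma, adjusted p = 0.0826). Among the 3 SD-101 groups Klrk1 differed by 0.10 (95% interval -0.58 to 0.77) between SD-101+anti-PD-1 and SD-101, by 0.33 (-0.39 to 1.05) between the triple treatment and SD-101, and by 0.23 (-0.52 to 0.98) between the triple treatment and SD-101+anti-PD-1. None of these passed the test, and the interval of the second reaches a doubling.

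**Figure D2:**
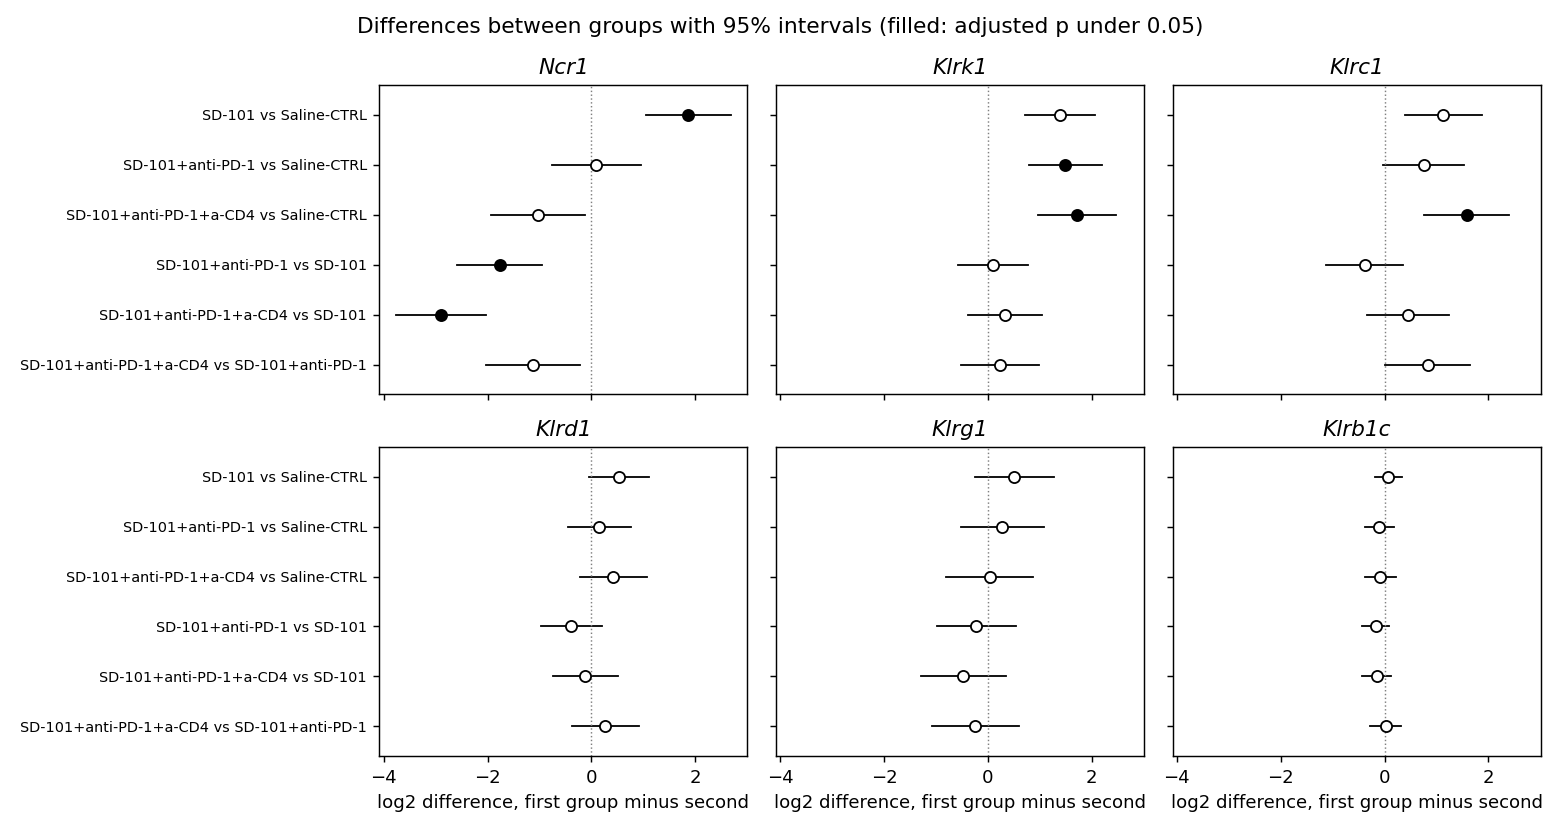
Log2 difference between groups (x axis, first group minus second) for the 6 receptor genes in the 6 comparisons (y axis), with the 95% interval as a line; filled points passed the test at an adjusted p under 0.05. Filled points are seen for Ncr1 (1.86, -1.77 and -2.89), Klrk1 (1.49 and 1.72) and Klrc1 (1.58) and for no other receptor.

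Klrc1 and Klrd1 encode the 2 chains of an inhibitory receptor: NKG2A, which carries the inhibitory motifs, and CD94, which pairs with it to bind the MHC class Ib molecule Qa-1. Klrc1 had its highest group mean in the triple treatment. It was 0.45 higher there than in SD-101 (limma, adjusted p = 0.589) and 0.83 higher than in SD-101+anti-PD-1 (limma, adjusted p = 0.270). Neither difference passed the test. The saline values of Klrc1 were 7.03, 8.15, 7.001, 7.28 and 6.54, with replicate 2 well above the rest. In SD-101 they ran from 7.59 through a median of 8.52 to 8.81, and in SD-101+anti-PD-1 they were 8.04, 7.71, 7.96, 7.59 and 8.47. Both ranges overlapped with saline only through that high saline array.

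Klrc1 stood at 9.60, 7.35, 9.27 and 8.91 in the triple treatment, so that 3 of 4 arrays lay above all saline arrays and replicate 2 did not. Klrc1 rose by 1.58 (SE 0.39; limma, adjusted p = 0.0190) in the triple treatment against Saline-CTRL, a 2.99-fold difference, from 7.20 ± 0.59 (SD, n = 5) to 8.78 ± 0.999 (SD, n = 4). A second probe set of Klrc1 gave 1.31 (SE 0.36; limma, adjusted p = 0.0353 over all 28898 probe sets with 1 symbol). The call was lost in 3 of the 9 fits that left out 1 array, those without Saline-CTRL replicate 3, triple treatment replicate 1 or triple treatment replicate 3, with a limma adjusted p of up to 0.0691, and with only the 2 groups fitted (limma, adjusted p = 0.123). Without the 2 arrays of lowest T cell identity the difference was 2.02 (limma, adjusted p = 0.00341). Against Saline-CTRL the Klrc1 difference was 1.13 (95% interval 0.40 to 1.87; limma, adjusted p = 0.298) in SD-101 and 0.75 (-0.02 to 1.52; limma, adjusted p = 0.287) in SD-101+anti-PD-1, neither of which passed. With array weights Klrc1 was called in SD-101 against Saline-CTRL (1.24; limma, adjusted p = 0.0489) and in the triple treatment against SD-101+anti-PD-1 (1.19; limma, adjusted p = 0.0138).

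Klrd1 did not pass limma's test in any comparison, and its unadjusted p was not under 0.05 in any. With array weights it was called in SD-101+anti-PD-1 against SD-101 (-0.59; limma, adjusted p = 0.0479). Its saline values were 7.89, 8.51, 8.35, 8.09 and 7.98, and in SD-101 they ran from 7.86 through a median of 8.91 to 9.11. They were 8.21, 8.19, 8.46, 7.92 and 8.78 in SD-101+anti-PD-1 and 9.31, 7.41, 8.88 and 8.72 in the triple treatment. All 4 groups overlapped. The Klrd1 difference from Saline-CTRL was 0.54 (95% interval -0.05 to 1.12) in SD-101, 0.15 (-0.46 to 0.76) in SD-101+anti-PD-1 and 0.42 (-0.23 to 1.07) in the triple treatment, intervals that do not exclude a doubling in SD-101 and the triple treatment.

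Klrg1 encodes an inhibitory receptor for cadherins that marks terminally differentiated effector CD8 T cells and mature NK cells. Its values were 4.97, 6.47, 7.39, 6.54 and 6.44 in Saline-CTRL, and 6.45 to 7.25 with a median of 6.84 in SD-101. They were 6.43, 6.17, 7.32, 6.69 and 6.57 in SD-101+anti-PD-1 and 6.55, 5.17, 7.24 and 6.61 in the triple treatment. The groups overlapped throughout, and the 2 lowest values were those of the 2 arrays of lowest T cell identity. No comparison was called, the largest difference from saline being 0.50 (95% interval -0.26 to 1.26) in SD-101.

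Klrb1c encodes NK1.1, a lectin-like receptor used as a surface marker of NK cells in some mouse strains. Its values lay between 2.75 and 3.55 on all 20 arrays, near the low end of the scale. Its mean of 2.96 was at the 25.4th percentile of all genes. The highest was Saline-CTRL replicate 5 (3.55), the array with the highest score of 3 innate-like T cell markers (7.27). None of its 6 differences passed the test, and every 95% interval lay within -0.44 and 0.34. At so low a level, narrow intervals do not show that Klrb1c was unchanged in the cells.

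Across the 6 measured receptors, then, the count called was 1 in SD-101 against saline (0.333% of all genes), 1 in SD-101+anti-PD-1 against saline (5.63%) and 2 in the triple treatment against saline (7.12%). The median log2 difference of the receptors was 0.83 in the first (0.012 over all genes), 0.21 in the second (0.031) and 0.23 in the third (0.037). Against SD-101 the median was -0.31 in SD-101+anti-PD-1 (0.0080 over all genes) and -0.14 in the triple treatment (0.027). Between the triple treatment and SD-101+anti-PD-1 no receptor was called by limma, where 2.13% of all genes were, and the median was 0.12 (0.0022); Ncr1 (lower) and Klrc1 (higher) had an unadjusted p under 0.05 there.

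At an unadjusted p under 0.05, 3 receptors passed in SD-101 against saline (Ncr1, Klrk1 and Klrc1), where 8.27% of all genes did, 1 in SD-101+anti-PD-1 against saline (Klrk1; 18.6% of all genes) and 3 in the triple treatment against saline (Ncr1, Klrk1 and Klrc1; 20.8%). Against SD-101, Ncr1 was the only 1 in both combinations (18.3% and 16.6% of all genes), and 2 passed between the combinations, where 17.9% of all genes did. Klrd1, Klrg1 and Klrb1c passed in none of the 6 even at that threshold.

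Klrk1, Klrd1 and Klrc1 varied together from array to array. After the mean of each group was taken from each value, Pearson's r over the 20 arrays was 0.942 for Klrk1 with Klrd1, 0.892 for Klrk1 with Klrc1 and 0.917 for Klrd1 with Klrc1. Without the 2 arrays of lowest T cell identity (18 arrays) these were 0.902, 0.822 and 0.849. Triple treatment replicate 2 and SD-101 replicate 2 were below their group means for all 3 genes, and triple treatment replicates 1 and 3 were above. In the RefSeq gene order on chromosome 6, Klrd1 lies next to Klrk1, with Klre1 on its other side, and Klrc3 and Klrc2 separate Klrk1 from Klrc1.

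**Figure D3:**
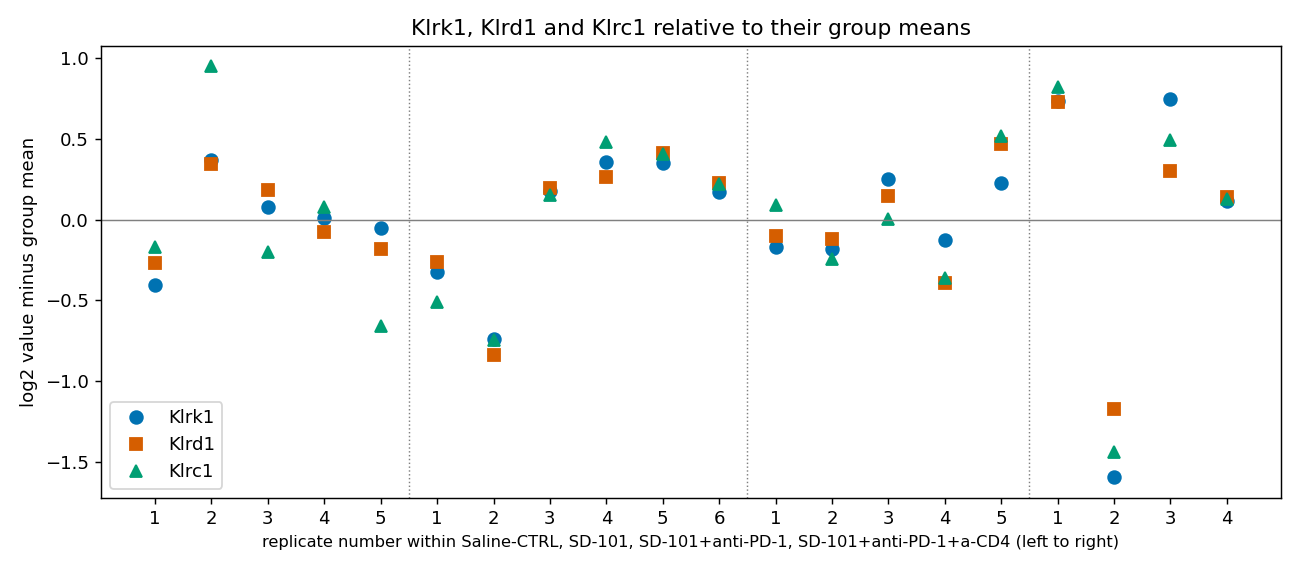
Log2 value minus its group mean (y axis) of Klrk1, Klrd1 and Klrc1 on each of the 20 arrays (x axis, replicates within the 4 groups, separated by dotted lines). The 3 genes lie close together on most arrays and are all lowest on triple treatment replicate 2.

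Ncr1 followed these 3 genes less closely, with r of 0.590 (Klrk1), 0.545 (Klrd1) and 0.545 (Klrc1), and 0.419, 0.347 and 0.365 without the 2 arrays. The T cell identity score moved with Klrk1, Klrd1 and Klrc1, with r of 0.829, 0.754 and 0.579 after group means were removed. Without the 2 arrays the score had r of 0.467, 0.456 and 0.104 with them, so little was left for Klrc1. Its part in the shared variation was not tested. The genes of an array share 1 RNA sample, so these correlations are descriptions and carry no p.

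The genes whose levels over the 20 arrays were most like each receptor, among 15421 candidates, differed between receptors. For Klrk1 they were Tbx21 (Pearson's r 0.976, Spearman's rho 0.980), which encodes the T-box factor T-bet of effector CD8 T cells and NK cells, and Cysltr2 (0.960), a leukotriene receptor. For Klrc1 they were Lag3 (0.924), an inhibitory receptor, and Ccl3 (0.906), a chemokine. For Klrd1 they were Sh3bgrl3 (0.895) and Ifng (0.889), the latter encoding interferon gamma. For Ncr1 they were Cd22 (0.893), a B cell surface receptor, and Clnk (0.875), an adaptor protein of immune cells.

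Tbx21 and Klrk1 kept r at 0.966 without the 2 arrays farthest from the Klrk1 median and at 0.939 with group means removed. Tbx21 rose by 1.36 (SE 0.33; limma, adjusted p = 0.0173) in SD-101+anti-PD-1 and by 1.67 (SE 0.35; limma, adjusted p = 0.00607) in the triple treatment against Saline-CTRL. In SD-101 against Saline-CTRL the difference was 1.27 (limma, adjusted p = 0.117). These are the comparisons in which Klrk1 was called and not called. Tbx21 was picked for its likeness to Klrk1 on these same arrays, so the match adds no separate evidence. For Klrg1 the likest genes were Pdcd1lg2 (0.866) and Marchf2 (0.830), but r fell to 0.691 and 0.669 without its 2 farthest arrays. For Klrb1c they were Cap2 (0.847) and Tenm1 (0.838), with 0.661 and 0.566 without its 2 farthest arrays.

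**Figure D4:**
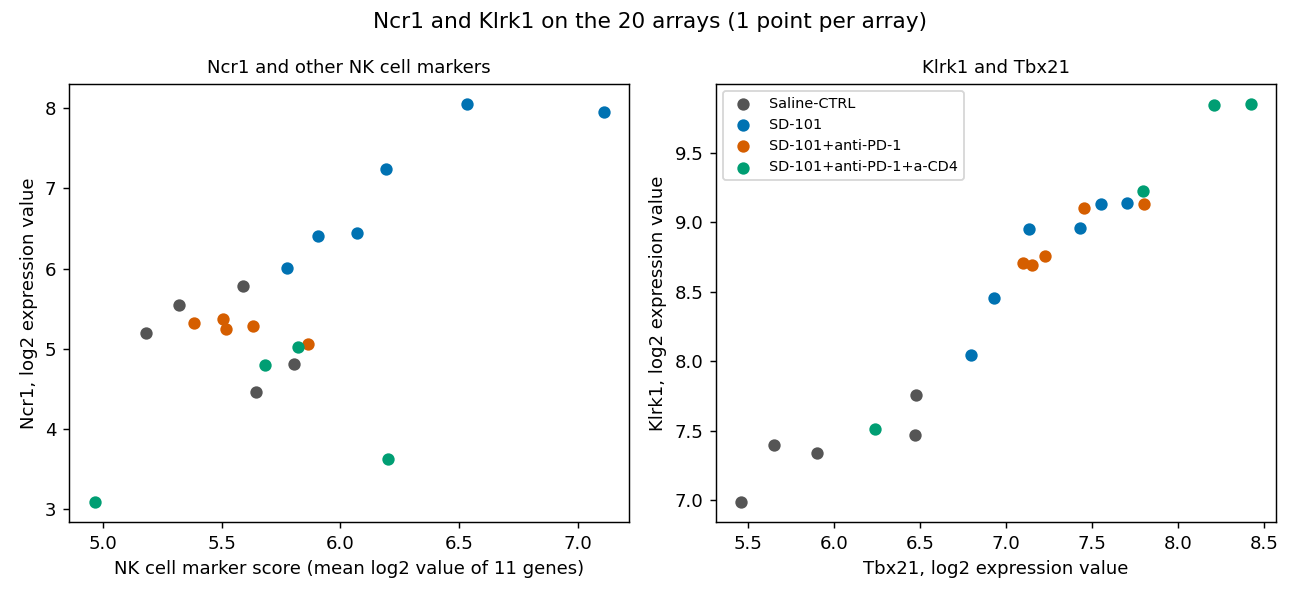
Left, Ncr1 (y axis, log2 expression value) against the mean log2 value of 11 other NK cell markers (x axis); right, Klrk1 (y axis) against Tbx21 (x axis), both as log2 expression values, 1 point per array and 1 colour per group. The SD-101 arrays (5.77 to 7.11 in NK cell marker score) are the highest for Ncr1 but overlap with the other groups in the score, while the Klrk1 and Tbx21 points lie along 1 line over all 4 groups (r 0.976).

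Counts called in the rest of the pathway are given beside the share of all genes, which was 7.12% in the triple treatment against Saline-CTRL. In that comparison limma called 0 of 12 other lectin-like receptors, 1 of 6 other shared receptors and 1 of 18 adaptors and signalling genes. It called 1 of 9 ligands and 2 of 12 transcription factors and cytokine receptors. Of 19 other lectin-like receptor genes listed, 12 were measured and none passed limma's test in any of the 6 comparisons. Before adjustment, 5 of them had a p under 0.05 in SD-101 against saline (8.27% of all genes), 0 in SD-101+anti-PD-1 against saline (18.6%) and 2 in the triple treatment against saline (20.8%). There were 3 and 5 against SD-101 in the 2 combinations (18.3% and 16.6%) and 0 between them (17.9%). In SD-101 against saline 11 of the 12 had a positive difference, with a median of 0.28, where 9101 of all 17097 genes had one and their median was 0.012. Of 8 other receptors shared by NK and cytotoxic T cells, 6 were measured, and Cd160, which encodes a receptor for HVEM, rose by 2.79 (SE 0.47; limma, adjusted p = 0.00192) in the triple treatment against Saline-CTRL, from 5.22 ± 0.47 (SD, n = 5) to 8.01 ± 1.03 (SD, n = 4). It was 1.82 higher in SD-101 (limma, adjusted p = 0.0986) and 1.17 higher in SD-101+anti-PD-1 (limma, adjusted p = 0.148), neither of which passed. Saline-CTRL replicate 1 stood apart from its group for Cd160 at 4.39 (nearest array 5.31), and the Cd160 differences are not given without it.

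Of 19 adaptors and signalling genes, 18 were measured and 1 passed in 1 comparison, a share near that of all genes there. Ptpn11, encoding the phosphatase SHP-2, rose by 0.34 (SE 0.095; limma, adjusted p = 0.0364) in the triple treatment against Saline-CTRL. Saline-CTRL replicate 4 stood apart from its group for Ptpn11 at 8.81 (nearest array 8.48), and the call is not given without it. Hcst, the adaptor DAP10 that NKG2D uses, had a mean of 9.90 and differed by 0.10 (limma, adjusted p = 0.970) between SD-101 and Saline-CTRL. Tyrobp, the adaptor DAP12, differed by 1.54 in the same comparison (limma, adjusted p = 0.682) and by -2.41 in SD-101+anti-PD-1 against SD-101 (limma, adjusted p = 0.116), where neither passed.

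Of 16 ligand genes, 9 were measured. Cdh4, encoding R-cadherin, fell by 0.91 (SE 0.24; limma, adjusted p = 0.0287) in SD-101+anti-PD-1 and fell by 1.38 (SE 0.25; limma, adjusted p = 0.00277) in the triple treatment against Saline-CTRL. Endothelial markers fell in both comparisons too (8 of 8, where 5.63% and 7.12% of all genes were called), and their part in the Cdh4 result was not tested. H2-T23, which encodes Qa-1, the ligand of CD94 and NKG2A, had a mean of 11.4 and a difference of 0.43 (limma, adjusted p = 0.167) in SD-101 against Saline-CTRL. Of 12 transcription factors and cytokine receptors, all measured, Tbx21 and Il15ra passed. Il15ra, a receptor chain that presents a cytokine to NK and CD8 T cells, rose by 0.91 (SE 0.17; limma, adjusted p = 0.00307) in the triple treatment against Saline-CTRL and by 0.81 (SE 0.17; limma, adjusted p = 0.0207) against SD-101+anti-PD-1. Styk1, one of the 11 other NK cell markers and a kinase of NK cells, rose by 0.72 in both of these comparisons (limma, adjusted p = 0.00930 and 0.0253). For Il15ra, SD-101+anti-PD-1 replicate 4 stood apart from its group at 5.76 (nearest array 6.36). The Il15ra call against that group is not given without this array.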

How the data were processed

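The authors deposited log2 expression values of Affymetrix arrays, for which affy, RMA, limma and the build mm8 are named per the submitters' processing notes; versions and roles are not given in the sources used here. Values ran from 1.78 to 13.44, and array medians from 3.52 to 3.75. No arrays held identical values (pairwise r 0.927 to 0.993), and their number limits the precision. Of 45141 probe sets, 28898 carried 1 gene symbol, 551 several and 15692 none listed; 104 of the total were controls.

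A model of group means over all 20 arrays was fitted with limma 3.58.1 (lmFit, eBayes) in R 4.3.3. Tests were two-sided and Benjamini-Hochberg adjusted over 17097 genes, with a call at an adjusted p under 0.05. On simulated data, 75% to 82% of genes changed by 1 log2 unit were called. The changed genes were taken at random and the noise was independent between genes, so this share need not hold for the receptors. In SD-101 against Saline-CTRL, Klrk1 at 1.39 and Klrc1 at 1.13 were not called. The named genes were the receptors, pathway genes called in at least 1 comparison, and the 2 genes likest each receptor; other genes were named after their values were seen. Members and lists were chosen with earlier results of these data known. Alternatives covered probe set, scaling, filter, variance model, array weights, samples fitted, pairing and arrays left out. No batch is named in the labels or the table used.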

Additional observations from a re-analysis of the deposited data

Results flagged for a closer look

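None of the 28 sets of receptor values within a group held an array that stood apart from the rest (gap to the nearest array over the range, above Dixon's 95% critical value). Of 112 sets tested, pathway genes and marker scores included, 8 did, where chance gives about 1 in 20.

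For marker scores (mean log2 value) these were triple treatment replicate 2 for T cell identity (8.38) and for the transcription factors and cytokine receptors (6.55), both low; SD-101+anti-PD-1 replicate 3 for the other receptors shared with cytotoxic T cells (7.03), high; Saline-CTRL replicate 1 for neutrophil markers (9.87), high; and Saline-CTRL replicate 2 for dendritic cell markers (3.05), low. For single genes these were Cd160 in Saline-CTRL replicate 1 (4.39), low, Ptpn11 in Saline-CTRL replicate 4 (8.81), high, and Il15ra in SD-101+anti-PD-1 replicate 4 (5.76), low.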

How the results depend on the processing

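The number of receptors called in SD-101 against Saline-CTRL was 1, but 0 with quantile normalization, 3 with array weights (Klrk1 and Klrc1 gained), 0 with only the 2 groups fitted, 0 to 1 with an array left out and 0 without SD-101 replicates 3 and 4. In the triple treatment against Saline-CTRL it was 2, but 0 with only the 2 groups fitted and 1 to 2 with an array left out. In SD-101+anti-PD-1 against SD-101 it was 1, but 2 with array weights (Klrd1 gained) and 0 without SD-101 replicates 3 and 4. In the triple treatment it was 1 against SD-101, but 0 with only the 2 groups fitted, and 0 against SD-101+anti-PD-1, but 1 with array weights (Klrc1). The cause was not tested.

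Signs turned only where no call was made. Ncr1 in SD-101+anti-PD-1 against Saline-CTRL was -0.022 with quantile normalization, -0.049 with array weights and -0.075 to 0.25 with an array left out. Array weights gave -0.050 for Klrk1 in SD-101+anti-PD-1 against SD-101 (-0.050 to 0.17 with an array left out), 0.015 for Klrd1 in the triple treatment against SD-101 (-0.36 to 0.27) and 0.0034 for Klrg1 in the triple treatment against SD-101+anti-PD-1 (-0.53 to 0.16). Without the 2 arrays of lowest T cell identity, Klrg1 was -0.073 in SD-101+anti-PD-1 against Saline-CTRL (-0.073 to 0.53 with an array left out) and 0.16 in the triple treatment against SD-101+anti-PD-1, and Klrd1 was 0.27 in the triple treatment against SD-101. With an array left out, Klrg1 in the triple treatment against Saline-CTRL was -0.32 to 0.44, Klrb1c -0.16 to 0.044 and -0.14 to 0.061 in SD-101+anti-PD-1 and the triple treatment against Saline-CTRL and -0.013 to 0.060 between these 2 treatments, and Klrk1 -0.018 to 0.76 between them. The second probe set of Klrc1 gave 0.040 in SD-101+anti-PD-1 against SD-101.

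Same-numbered arrays of different groups did not deviate together (r of -0.39 to 0.51 over 27 pairs, 9 over 0.1), so the numbers do not show a pairing. With the replicate number as a block, receptors called stayed at 1, 1, 2, 1, 1 and 0 in the 6 comparisons (SD-101, SD-101+anti-PD-1 and the triple treatment against Saline-CTRL, the last 2 against SD-101, and these 2 against each other), and genes called were 42, 1075, 1268, 751, 250 and 242 (57, 962, 1218, 816, 168 and 364 without it).

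The number of all genes called moved more. In the order of the 6 comparisons above it ranged, with an array left out, over 25 to 64, 553 to 1531, 665 to 1234, 317 to 1081, 35 to 220 and 73 to 488. Array weights gave 119, 1953, 2760, 603 and 1246 in all but the third, only the 2 groups fitted gave 10 in the first, 476 in the third, 1332 in the fourth and 56 in the fifth, and keeping only genes above the median mean gave 566 in the second, 325 in the fourth and 149 in the sixth. Without the 2 arrays of lowest T cell identity, the triple treatment had 51 genes called against SD-101 and 62 against SD-101+anti-PD-1. Without SD-101 replicates 3 and 4, SD-101 had 6 called against Saline-CTRL, and SD-101+anti-PD-1 and the triple treatment had 161 and 17 against SD-101.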
